A study of Mus musculus with 48 samples.

Results

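The step from the early to the late active phase of the mouse kidney was taken as ZT14 and ZT16 (4 pools) against ZT18 and ZT20 (4 pools). Zeitgeber time (ZT) is counted from lights-on at ZT00, lights-off falls at ZT12, and mice are active in the dark. The step held 16 of the 48 libraries of the series, 8 from RNA-seq and 8 from RPF-seq, chosen by their timepoint labels alone. All mice were C57BL/6JRj males of 11-12 weeks kept for 2 weeks under 12 h of light and 12 h of dark, with no other treatment named. Early and late pools came from different mice, killed at different ZT over a pair of daily cycles, and the labels name no further difference between them. Each pool combined the kidney lysates of 2 mice and gave both libraries. RNA-seq measured mRNA abundance, and RPF-seq sequenced the mRNA fragments that ribosomes protect from nuclease, so that it measured translation. Because the lights were never held constant, a change driven by the internal clock and one driven by the light-dark schedule cannot be told apart.

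The circadian clock is a loop of transcription factors present in nearly every cell. BMAL1 (Arntl) with CLOCK or NPAS2 binds E-boxes and activates the Per, Cry, Nr1d and PAR bZIP genes, and the PER-CRY complex and the REV-ERB receptors then repress BMAL1-CLOCK and the Arntl gene in turn. In the kidney this loop is known for its part in the daily course of sodium, water and solute handling, and the night is when mice move, feed and have the higher body temperature.

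Values were RPKM of coding sequences, and all differences are late minus early on the log2(RPKM + 0.1) scale, a scale that understates the change of low genes. They were tested with limma over 11863 genes with a median of at least 0.5 RPKM in both assays, and a gene was called at a Benjamini-Hochberg adjusted p under 0.05. A gene that kept moving between ZT14 and ZT16, or between ZT18 and ZT20, had that movement counted as spread. Relative to the median library of its assay, depth was 0.756 to 1.17 in early and 0.598 to 0.793 in late RNA-seq libraries, and 0.711 to 0.924 against 0.701 to 1.26 in RPF-seq, so the late RNA-seq libraries were the shallower ones. The authors' scaling made the upper quartiles of these libraries nearly equal (36.9 to 39.3 RPKM), so a change in total mRNA per cell cannot be seen, and in bulk tissue fewer cells of a type and less RNA per cell cannot be told apart. All 6 proximal tubule markers and all 6 podocyte markers were measured, so the defining markers of kidney were present. None of 8 adrenal cortex markers was among the 12423 genes listed for both assays. The 4 of 6 adipocyte markers that were measured summed to 292 to 504 RPKM early and 212 to 284 late in RPF-seq and overlapped in RNA-seq. Fabp4 made up most of the RPF-seq sum (286 to 485 RPKM early and 197 to 266 late) and was not called (limma adjusted p = 0.0857). Footprints of Adipoq, Cfd and Plin1 overlapped between the groups. The part of these markers in the results was not tested. Nothing in the labels names an extraction or sequencing batch.

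Between the early and the late active phase, more transcripts than footprints passed the test. In RNA-seq 729 genes rose (6.15% of genes tested) and 612 fell (5.16%), by a median of 0.37 in absolute log2 terms. In RPF-seq 45 rose (0.379%) and 85 fell (0.717%), by a median of 0.59. At an unadjusted p under 0.05 RNA-seq held 3422 genes and RPF-seq 1999, so the gap between the assays was narrower there. With a further minimum of 1.5-fold, 76 genes (0.641%) rose and 130 (1.1%) fell in RNA-seq, most of the steps being smaller than that. These counts rested strongly on single libraries. In RNA-seq 1341 genes were called in all, and 293 without ZT14 replicate 2, 518 without ZT20 replicate 1, 606 without ZT20 replicate 2 and 875 without ZT18 replicate 1. In RPF-seq 130 were called in all, and 3 without ZT14 replicate 2, 5 and 7 without ZT20 replicate 1 or 2, 8 and 18 without ZT18 replicate 1 or 2, 36 without ZT16 replicate 1 and 216 without ZT16 replicate 2. A variance estimate without a trend over expression left 3 RPF-seq genes, all of which fell. In RNA-seq the balance of rises and falls turned with the scaling, at 867 rises and 531 falls (62.0% rises) with the libraries centred on their medians and 522 and 547 (48.8%) after quantile normalisation, against 54.4% as reported. With the libraries centred on their medians, 46 genes rose and 57 fell in RPF-seq, so that the share that rose went from 34.6% to 44.7%.

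The 2 assays overlapped in 63 genes, which made up 4.70% of the genes called in RNA-seq and 48.5% of those called in RPF-seq. The same pools gave both libraries, so these lists are not independent. Of the 63, 62 moved the same way in both, and the exception was Alb, the serum albumin gene, which rose by 0.69 in RNA-seq and fell by 0.79 in RPF-seq. Among genes called in RPF-seq, 88.5% had an RNA-seq difference of the same sign, with a median of 0.36 in the RPF-seq direction. Among those called in RNA-seq, 69.8% had an RPF-seq difference of the same sign, with a median of 0.094 in the RNA-seq direction.

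**Figure D1:**
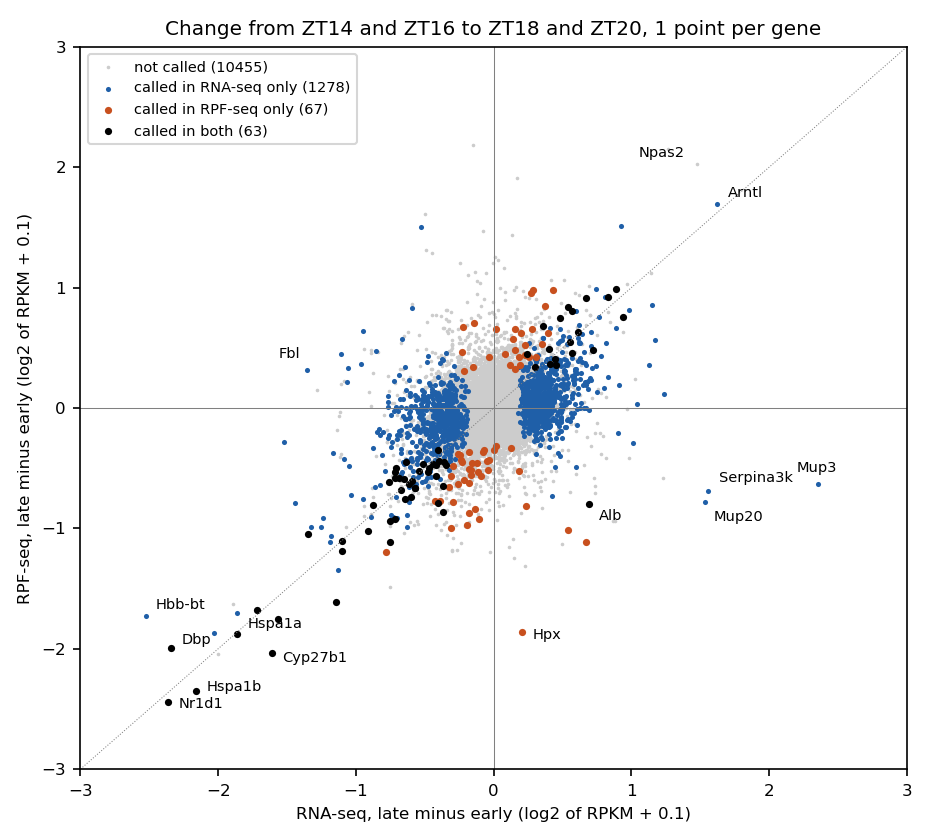
Each point is one gene, with its RNA-seq difference (late minus early, log2 of RPKM + 0.1) on the x axis and its RPF-seq difference on the y axis, coloured by the assay in which it was called. Nr1d1, Dbp, Hspa1a and Hspa1b lie far out near the diagonal at the lower left, Arntl lies at the upper right, and Mup3 and Hpx lie off the diagonal.

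Several clock genes were among the widest movers. Their promoters are shown because the E-box, D-box and ROR element that run the loop can be read in some of them, namely CACGTG, TTATGTAA and TAGGTCA on either strand. RefSeq promoter windows were held for 16 of the 19 clock genes. Each begins 250 bases before a transcript start and runs past it, and motifs were counted over the whole window. Of these genes, 5 had an E-box, 1 a D-box, 2 a ROR element and 7 none of the motifs searched. Shown here are the 250 bases before the start for Ciart, Per3 and Nfil3. Ciart had 3 E-boxes 116, 58 and 44 bases before the start (GRCm38.p6, chr3:95882229-95882478, minus strand). Per3 had 2 D-boxes 205 and 158 bases before it (chr4:151044666-151044915, minus strand). Nfil3 had a ROR element, read on the other strand, 12 bases before it (chr13:52981040-52981289, minus strand). Capitals mark the motif, and each sequence runs 5′ to 3′ toward the start.
Ciart: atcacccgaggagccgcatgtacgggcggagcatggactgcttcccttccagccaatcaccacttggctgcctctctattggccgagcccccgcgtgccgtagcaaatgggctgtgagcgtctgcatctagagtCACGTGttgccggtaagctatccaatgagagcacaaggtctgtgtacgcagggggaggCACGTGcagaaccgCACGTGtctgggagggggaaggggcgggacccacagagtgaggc
Per3: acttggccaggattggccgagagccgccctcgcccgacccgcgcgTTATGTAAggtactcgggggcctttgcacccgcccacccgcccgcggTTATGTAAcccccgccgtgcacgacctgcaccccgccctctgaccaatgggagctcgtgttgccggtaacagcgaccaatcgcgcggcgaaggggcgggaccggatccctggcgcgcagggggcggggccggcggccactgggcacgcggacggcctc
Nfil3: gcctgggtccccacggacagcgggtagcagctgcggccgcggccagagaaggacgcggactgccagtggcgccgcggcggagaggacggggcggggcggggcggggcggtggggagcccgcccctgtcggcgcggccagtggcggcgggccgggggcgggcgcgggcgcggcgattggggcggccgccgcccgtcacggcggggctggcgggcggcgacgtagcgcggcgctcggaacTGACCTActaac

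A match in such a window is a description and not a binding site. Of all 32851 promoter windows, 7.15% held the E-box, 0.938% the D-box and 2.61% the ROR element. Among windows of genes that rose at least 1.5-fold in RNA-seq (71 windows of 59 genes) the shares were 9.86%, 1.41% and 8.45%, and among those of genes that fell as much (135 windows of 98 genes) 8.15%, 0.741% and 2.96%. Among all genes tested the shares were 9.94%, 0.593% and 1.99%. The ROR element thus stood in 6 of the 71 windows of genes that rose, Arntl among them, and in 4 of the 135 of genes that fell.

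Arntl and Npas2, activators of the loop, were low at ZT14 and high at ZT20. Arntl (ENSMUSG00000055116, GRCm38 chr7:113207465-113314126), which encodes BMAL1, stood in RNA-seq at 2.22 and 2.49 at ZT14, 9.89 and 10.9 at ZT16, 12.1 and 12 at ZT18, and 19.2 and 20.8 at ZT20. All 4 late pools lay above all 4 early pools, and the steepest stretch was from ZT14 to ZT16, within the early group. The difference was 1.62 ± 0.47 (SE, n = 4 pools against 4; limma adjusted p = 0.048), and its adjusted p was 0.056 after the libraries were flattened over coding GC content and length. In RPF-seq Arntl read 1.52 and 1.38 at ZT14, 7.55 and 8.01 at ZT16, 9.06 and 8.95 at ZT18, and 14.8 and 13.3 at ZT20. These groups did not overlap either, but the difference of 1.70 missed the threshold (adjusted p = 0.14). Npas2, whose product can take the place of CLOCK, had 0.819 and 0.478 at ZT14, 1.66 and 3.1 at ZT16, 2.22 and 2.09 at ZT18, and 5.42 and 6.3 at ZT20 RPKM in RNA-seq, with the ZT16 and ZT18 pools overlapping (difference 1.48, adjusted p = 0.0794). Its footprints separated the groups, at 0.044 and 0.181 at ZT14, 0.717 and 0.782 at ZT16, 0.89 and 0.925 at ZT18, and 2.63 and 2.83 at ZT20 RPKM (difference 2.03, adjusted p = 0.124). The Npas2 footprint values at ZT14 lie near or under the pseudocount, so that difference depends on it. Clock itself ranged from 20.7 to 33.6 RPKM over the 8 pools in RNA-seq and was not called in either assay (differences 0.21 and 0.53).

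The REV-ERB repressors ran the opposite way. Nr1d1 (ENSMUSG00000020889, chr11:98767932-98775333), which encodes REV-ERBα, went through 18.4 and 14.4 at ZT14, 6.52 and 5.21 at ZT16, 2.11 and 2.26 at ZT18, and 1.31 and 1.7 at ZT20 RPKM in RNA-seq and 21.9 and 18 at ZT14, 8.85 and 8.46 at ZT16, 2.79 and 2.07 at ZT18, and 1.26 and 3.97 at ZT20 in RPF-seq. No late pool reached an early one in either assay. It fell by 2.36 ± 0.35 in RNA-seq, or 5.15-fold (adjusted p = 0.00609), and by 2.44 ± 0.37 in RPF-seq (adjusted p = 0.0295). Its paralogue Nr1d2 had 59.5 and 68.6 at ZT14, 50.9 and 43.3 at ZT16, 36 and 30.1 at ZT18, and 21.2 and 16.9 at ZT20 RPKM in RNA-seq and fell by 1.13 (adjusted p = 0.0111). Nr1d2 footprints also separated the groups (16 to 34.8 early and 6.4 to 14.8 late), with a difference of -1.34 and an adjusted p of 0.0541. Rora, whose product binds the ROR element as an activator, ranged from 24.4 to 34 RPKM in RNA-seq, with a difference of 0.057 that was not called.

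Of the Per and Cry genes, all 3 Per transcripts fell and neither Cry transcript was called. Per1 had 9.43 and 12.5 at ZT14, 9.19 and 6.44 at ZT16, 4.35 and 5.22 at ZT18, and 3.35 and 2.78 at ZT20 RPKM in RNA-seq, groups that did not overlap, and fell by 1.24 (adjusted p = 0.00965). Per2 declined through 28.9 and 27.7 at ZT14, 19.4 and 16.8 at ZT16, 15.9 and 14.1 at ZT18, and 10.7 and 11 at ZT20, a fall of 0.82 (adjusted p = 0.02000), and Per3 through 12.9 and 11.1 at ZT14, 9.18 and 7.62 at ZT16, 6.32 and 5.997 at ZT18, and 3.35 and 3.54 at ZT20, a fall of 1.10 (adjusted p = 0.0152). In both, each later timepoint lay below the one before it. Only Per3 was also called in RPF-seq, at 2.14 and 2.52 at ZT14, 1.6 and 1.95 at ZT16, 1.17 and 0.965 at ZT18, and 0.929 and 0.588 at ZT20 RPKM and a fall of 1.11 (adjusted p = 0.0496, and 0.054 with the GC and length flattening). The RPF-seq differences of Per1 and Per2 were -0.92 and -0.64 with groups that did not overlap (adjusted p = 0.071 and 0.0738), and no difference between the Per genes was tested. Cry1 differed by 0.30 in RNA-seq and Cry2 by -0.23, both with overlapping groups.

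The PAR bZIP activators, which bind D-boxes, fell with the REV-ERBs. Dbp (ENSMUSG00000059824, chr7:45705088-45710203) went through 62 and 50.4 at ZT14, 17.3 and 15.2 at ZT16, 9.02 and 9.54 at ZT18, and 4.37 and 3.12 at ZT20 RPKM in RNA-seq and through 40.2 and 36.5 at ZT14, 18.3 and 10.9 at ZT16, 7.48 and 8.98 at ZT18, and 3.61 and 4.55 at ZT20 in RPF-seq. Groups did not overlap, and Dbp fell by 2.34 ± 0.48 in RNA-seq (adjusted p = 0.0152) and by 1.99 ± 0.40 in RPF-seq (adjusted p = 0.046, and 0.060 with the flattening). Tef was the more abundant, at 142 and 126 at ZT14, 88.9 and 81.3 at ZT16, 81.1 and 75.2 at ZT18, and 63.1 and 52.4 at ZT20 in RNA-seq and 138 and 137 at ZT14, 110.0 and 109.5 at ZT16, 89.3 and 75.3 at ZT18, and 75.2 and 67.5 at ZT20 in RPF-seq. It fell by 0.67 and 0.68 (adjusted p = 0.0381 and 0.0295). Hlf fell by 0.41 in RNA-seq, from 40.3 to 48.6 early and 30.9 to 35.9 late RPKM, but its footprints stayed within 35.7 to 42.7 RPKM (difference -0.027, adjusted p = 0.896). The difference between its assays was 0.39 with an adjusted p of 0.101, which did not pass. Ciart, an E-box repressor also known as CHRONO, had 4.85 and 5.78 at ZT14, 1.71 and 0.831 at ZT16, 0.204 and 1.18 at ZT18, and 0.517 and 0.631 at ZT20 RPKM in RNA-seq and fell by 2.03 (adjusted p = 0.0442), although one late pool lay above one early pool. Nfil3, the D-box repressor that opposes the PAR bZIP factors, had 3.13 and 5.41 at ZT14, 8.68 and 18.9 at ZT16, 15.5 and 13.4 at ZT18, and 19.5 and 16.9 at ZT20 RPKM, overlapping groups and a difference of 1.14 (adjusted p = 0.0911). Its 2 pools at ZT16 lay far apart. Bhlhe41, the E-box repressor DEC2, was called in RPF-seq, at 4.16 and 2.68 at ZT14, 2.85 and 2.77 at ZT16, 1.83 and 1.56 at ZT18, and 1.82 and 1.36 at ZT20 RPKM, a fall of 0.87 (adjusted p = 0.0496, and 0.075 with the flattening), beside an RNA-seq difference of -0.18. Its paralogue Bhlhe40 differed by -0.34 in transcripts and -0.32 in footprints and was not called.

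**Figure D2:**
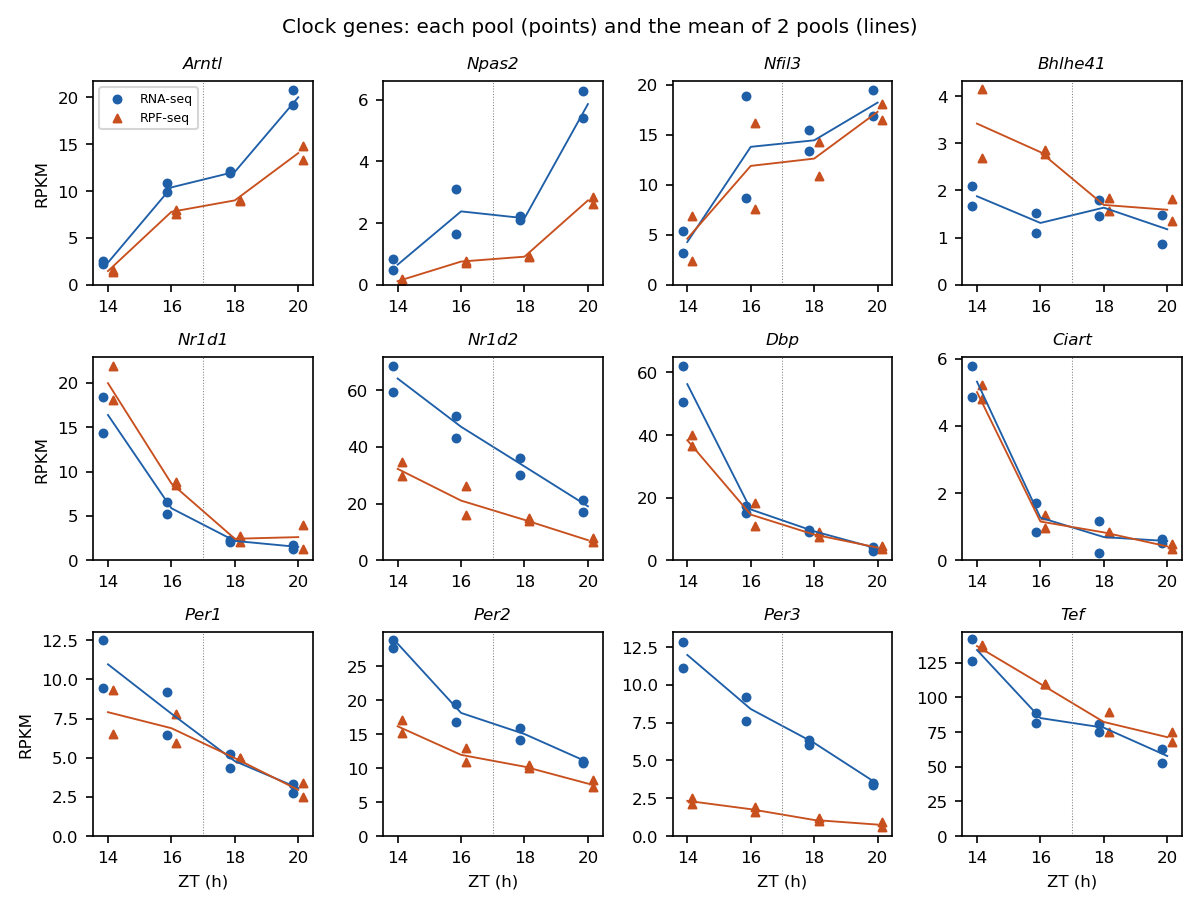
RPKM of 12 clock genes against ZT in h, with one point per pool (circles RNA-seq, triangles RPF-seq), lines through the mean of 2 pools and a dotted line between the early and late groups. Arntl RNA rises from about 2.22 to 20.8 RPKM while Dbp RNA falls from 62.0 to 3.12, and for both the ZT14 pools stand far from the ZT16 pools of the same group.

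Among the stress-inducible HSP70 genes, Hspa1b had the smallest adjusted p of all genes in RPF-seq and shared it with Hspa1a in RNA-seq. Hspa1b (ENSMUSG00000090877, chr17:34956436-34959238) had 40.2 and 39.2 at ZT14, 30.9 and 35.7 at ZT16, 10.4 and 8.97 at ZT18, and 5.74 and 7.79 at ZT20 RPKM in RNA-seq and 19.2 and 21.3 at ZT14, 17.7 and 23.7 at ZT16, 4.53 and 5.31 at ZT18, and 2.59 and 3.77 at ZT20 in RPF-seq. The lowest early pool lay far above the highest late one in both assays. It fell by 2.16 ± 0.16 (4.47-fold, adjusted p = 0.000156) and by 2.35 ± 0.19 (5.09-fold, adjusted p = 0.000976). Hspa1a, its near-identical neighbour, had 24.9 and 25 at ZT14, 19.2 and 20.9 at ZT16, 6.96 and 7.4 at ZT18, and 4.99 and 5.33 at ZT20 RPKM in RNA-seq and 15.2 and 18.7 at ZT14, 11.4 and 9.04 at ZT16, 4.22 and 4.14 at ZT18, and 2.88 and 2.94 at ZT20 in RPF-seq, falls of 1.86 and 1.88 (adjusted p = 0.000156 and 0.012). How reads were split between these copies is uncertain, so they count as one observation. Their promoter windows, shown because both hold the same heat shock element (GAANNTTC) 104 bases before the start, lie at chr17:34972157-34972406 for Hspa1a and chr17:34959239-34959488 for Hspa1b (GRCm38.p6, RefSeq, both on the minus strand), with the element in capitals.
Hspa1a: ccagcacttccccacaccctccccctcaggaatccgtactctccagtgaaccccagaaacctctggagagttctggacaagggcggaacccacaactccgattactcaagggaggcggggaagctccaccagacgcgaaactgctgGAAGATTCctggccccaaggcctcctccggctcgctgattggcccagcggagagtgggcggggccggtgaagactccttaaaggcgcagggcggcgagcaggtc
Hspa1b: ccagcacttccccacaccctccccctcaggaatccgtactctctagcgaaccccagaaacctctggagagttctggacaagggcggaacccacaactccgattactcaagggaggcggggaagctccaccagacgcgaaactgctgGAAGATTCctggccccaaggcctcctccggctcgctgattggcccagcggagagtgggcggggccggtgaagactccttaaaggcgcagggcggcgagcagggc

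The heat shock element stood in 7.86% of all windows, in 7.04% of those of genes that rose at least 1.5-fold in RNA-seq and in 6.67% of those that fell as much. The CRE (TGACGTCA), which cAMP signalling uses, stood in 1.79%, 1.41% and 1.48%. In the windows of all genes tested the shares were 5.79% for the heat shock element and 2.82% for the CRE. Among the 22 cytosolic heat shock genes tested, 7 fell and 3 rose in RNA-seq, where the background over all genes was 5.16% and 6.15%. In RPF-seq 4 fell and none rose, where the background was 0.717% and 0.379%. The co-chaperone genes Dnajb1 (-0.88 in RNA-seq, -0.80 in RPF-seq) and Dnajb4 (-0.37 and -0.86) fell in both. Bag3, an HSP70 cofactor, went from 17.2 to 22.7 early and 11.6 to 13.3 late RPKM and fell by 0.64 in RNA-seq (adjusted p = 0.00807), and Hspa8, the constitutive HSC70, fell by 0.61. Hsp90aa1 rose by 0.50, Hspa4l by 0.37 and Hspe1 by 0.28 in RNA-seq, so the list did not move one way. With the GC and length flattening 1 member rose and 7 fell in RNA-seq, beside 563 and 617 of all 11863 genes, and the list median there was -0.17. Without the flattening the list median was -0.029 in RNA-seq and -0.12 in RPF-seq, against 0.0034 and -0.0027 over all genes tested. Cold-inducible Cirbp and Rbm3 had differences between -0.31 and -0.08 in the assays and were not called.

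Chaperones of the endoplasmic reticulum fold secreted and membrane proteins. Of 18 tested, 6 rose and 2 fell in RNA-seq, and 1 rose in RPF-seq (medians 0.26 and 0.14), where over all genes 6.15% rose and 5.16% fell in RNA-seq and 0.379% rose in RPF-seq. Hsp90b1 rose by 0.65, Pdia6 by 0.53, Calr by 0.52, Hyou1 by 0.46, Pdia3 by 0.41 and Dnajc3 by 0.37. Calr, the calcium-binding chaperone calreticulin, had 521 to 677 early and 796 to 884 late RPKM in RNA-seq. Those that fell, Herpud1 (-0.55) and Syvn1 (-0.42), belong to the degradation arm and not to folding. Pdia3 was the member called in RPF-seq (0.36). Derl3, another degradation gene and no member of the list, rose by 1.17 in RNA-seq (adjusted p = 0.0386).

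Targets of the glucocorticoid and mineralocorticoid receptors were called more often as falling than as rising. Of 17 tested, 8 fell and 1 rose in RNA-seq, and 3 fell in RPF-seq, with medians of -0.37 and -0.18. Over all genes 5.16% fell and 6.15% rose in RNA-seq, and 0.717% fell in RPF-seq. Fkbp5, a receptor co-chaperone induced by the hormone itself, had 77.1 and 75.3 at ZT14, 90.5 and 74.4 at ZT16, 52.1 and 53.8 at ZT18, and 40.1 and 41.8 at ZT20 RPKM in RNA-seq and 148 and 158 at ZT14, 155 and 166 at ZT16, 105 and 136 at ZT18, and 85 and 88.5 at ZT20 in RPF-seq. Groups did not overlap, and Fkbp5 fell by 0.76 ± 0.10 and 0.62 ± 0.13 (adjusted p = 0.00539 and 0.0496). Sgk1, the kinase that keeps sodium channels at the membrane, fell by 0.60 and 0.74, and Tsc22d3, which encodes GILZ, by 0.37 and 0.65. Ddit4, Zbtb16, Mt1, Per1 and Hsd11b2 fell in RNA-seq. In RPF-seq they did not pass, although Zbtb16 differed by -1.11 and Mt1 by -0.74 there (adjusted p = 0.0661 and 0.0635). Hsd11b2, the enzyme that inactivates corticosterone in the collecting duct, fell from 69.1 to 70.3 early and 41.3 to 56.3 late RPKM in RNA-seq, by 0.52, beside 204 to 259.8 RPKM in RPF-seq with no separation (difference -0.02). Its difference between the assays was not called (adjusted p = 0.12). Hsd11b1, which regenerates the hormone, rose by 0.51 in RNA-seq. The receptor genes Nr3c1 and Nr3c2 were not called, at 0.10 and -0.06.

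Immediate early genes, which respond to growth factors and stress within minutes, showed 6 falls and no rise among 18 tested in RNA-seq, and 1 fall in RPF-seq, beside 5.16% falls and 6.15% rises over all genes in RNA-seq and 0.717% falls in RPF-seq. With the GC and length flattening 4 members fell in RNA-seq. The list median was -0.39 in RNA-seq and -0.33 in RPF-seq. Jun, a subunit of AP-1, was called in both, with 33.1 and 31.2 at ZT14, 27 and 34.3 at ZT16, 20.2 and 21 at ZT18, and 17.1 and 19.4 at ZT20 RPKM in RNA-seq and 47.6 and 51 at ZT14, 48.2 and 56.4 at ZT16, 34.1 and 35.8 at ZT18, and 30.8 and 34.4 at ZT20 in RPF-seq. It fell by 0.69 and 0.58 (adjusted p = 0.00536 and 0.0206), with no overlap. Klf2 fell by 0.88, Nr4a1 by 1.05, Ier3 by 0.59, Zfp36 by 0.47 and Klf6 by 0.31 in RNA-seq, whereas Fos (-0.06) and Egr1 (-0.37) did not pass.

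Cyp27b1 (ENSMUSG00000006724, chr10:127048250-127053006) makes the active form of vitamin D in the proximal tubule. It had 5.34 and 2.95 at ZT14, 4.23 and 5.004 at ZT16, 1.93 and 1.17 at ZT18, and 1.19 and 1.18 at ZT20 RPKM in RNA-seq and 5.19 and 6.14 at ZT14, 8.19 and 7.96 at ZT16, 1.92 and 1.56 at ZT18, and 0.887 and 2.24 at ZT20 in RPF-seq. Every late pool lay below every early pool in both. It fell by 1.61 ± 0.22 (3.05-fold, adjusted p = 0.00536) and by 2.04 ± 0.25 (4.11-fold, adjusted p = 0.0158). Levels this low rest on few reads in each library. Lcn2, the neutrophil gelatinase-associated lipocalin, also fell in both, by 1.35 and 1.05, from 8.35 to 15.1 early and 4.65 to 6.02 late RPKM in RPF-seq. Slc25a25, a mitochondrial ATP-Mg carrier, fell by 1.10 and 1.19, with 127 and 101 at ZT14, 72.2 and 61.4 at ZT16, 42 and 48.8 at ZT18, and 30.6 and 33.6 at ZT20 RPKM in RPF-seq. Upp2, a uridine phosphorylase, fell by 1.20 in RPF-seq, beside -0.78 in RNA-seq (adjusted p = 0.0569).

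**Figure D3:**
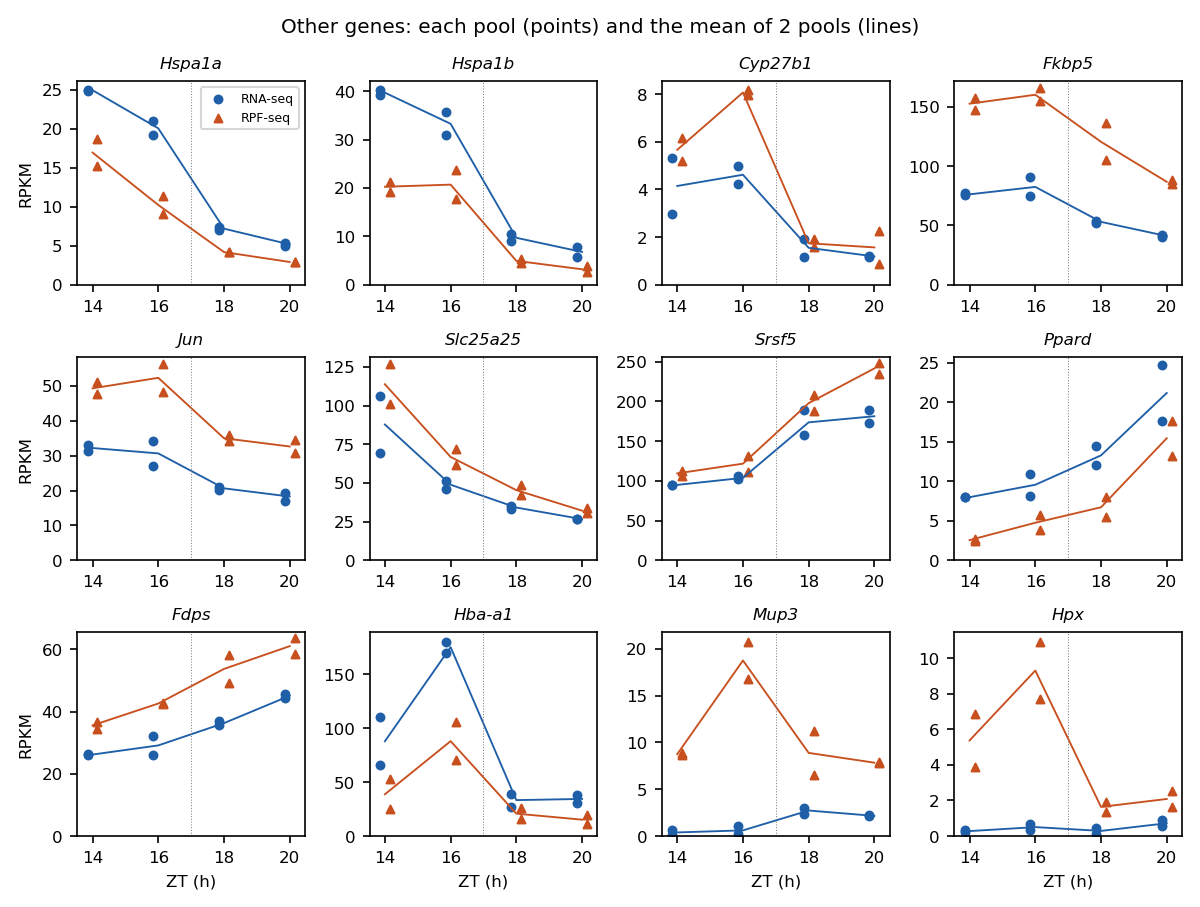
RPKM of 12 genes outside the clock against ZT in h, one point per pool (circles RNA-seq, triangles RPF-seq), lines through the mean of 2 pools. Hspa1a, Hspa1b, Cyp27b1 and Jun drop between ZT16 and ZT18 in both assays, Srsf5 and Fdps rise, Ppard RNA is highest at ZT20, and Hpx footprints range from 3.86 to 10.9 RPKM in early pools and from 1.35 to 2.51 in late ones with RNA values under 1 RPKM throughout.

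Genes of sterol synthesis were called mainly as rising. Of 30 SREBP targets and sterol genes tested, 8 rose and 1 fell in RNA-seq and 2 rose in RPF-seq (medians 0.14 and 0.15), against a background of 6.15% and 0.379% rising. Fdps, which makes farnesyl pyrophosphate, had 26.1 and 26.3 at ZT14, 26.1 and 32.2 at ZT16, 35.8 and 36.8 at ZT18, and 44.5 and 45.7 at ZT20 RPKM in RNA-seq and 34.5 and 36.6 at ZT14, 42.4 and 42.8 at ZT16, 58.1 and 49.3 at ZT18, and 63.6 and 58.5 at ZT20 in RPF-seq. It rose by 0.55 in RNA-seq and by as much, 0.55, in RPF-seq (adjusted p = 0.0105 and 0.0381), with no overlap. Msmo1, a sterol demethylase, rose by 0.62 in RPF-seq. In RNA-seq Insig1, the sterol sensor, rose by 0.64, Srebf1 by 0.38, Sqle by 0.33 and Lss by 0.31. Acat2 fell by 0.54.

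Among 21 fasting genes none rose in RNA-seq, 5 fell, and 1 fell in RPF-seq (medians -0.074 and -0.11), against 6.15% rising and 5.16% falling over all genes in RNA-seq and 0.717% falling in RPF-seq. Pck1, the rate-limiting enzyme of gluconeogenesis, fell by 0.54 from 1788 to 2629 early and 1211 to 1695 late RPKM in RNA-seq and by 0.52 from 2917 to 3233 early and 1879 to 2459 late in RPF-seq (adjusted p = 0.0229 and 0.034). Cyp4a14 fell by 1.26, Pdk2 by 0.51, Cpt1a by 0.31 and Cpt2 by 0.23 in RNA-seq, and G6pc, the last gluconeogenic enzyme, was at 0.34 and not called. Among 16 insulin and FOXO genes, 4 fell and 1 rose in RNA-seq and 1 rose in RPF-seq, beside the same RNA-seq shares over all genes and 0.379% rising in RPF-seq. Foxo3 (-0.53), Foxo1 (-0.48) and Irs1 (-0.37) fell in RNA-seq and were not called in RPF-seq. With the GC and length flattening Irs1 was not called in RNA-seq either (limma adjusted p = 0.135). The member that rose in both was Gadd45a, a FOXO target, by 0.48 and 0.74 (adjusted p = 0.0242 and 0.0295). Ppard, a nuclear receptor for fatty acids, rose by 0.93 in RNA-seq from 7.96 and 8.03 at ZT14, 8.19 and 10.9 at ZT16, 12.1 and 14.5 at ZT18, and 17.7 and 24.7 at ZT20 RPKM, and its footprints differed by 1.51 (adjusted p = 0.0635). Pemt, which methylates phosphatidylethanolamine, rose by 1.24 in RNA-seq with overlapping footprints (1.31 to 2.91 RPKM).

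Transport genes of the tubule were called in both directions in RNA-seq. Among 18 sodium channel and cotransporter genes, 3 fell and 1 rose in RNA-seq and 1 fell in RPF-seq (medians -0.17 and -0.15), beside 5.16% falling and 6.15% rising over all genes in RNA-seq and 0.717% falling in RPF-seq. The summed markers of the thick ascending limb (6535 to 7686 RPKM early and 5935 to 6296 late) and of the distal convoluted tubule (1135 to 1215 and 1065 to 1117) were also lower in late pools in RPF-seq, and overlapped in RNA-seq. Umod made up most of the former sum (4624 to 5668 RPKM early and 4169 to 4498 late). No marker of either list was called in either assay. Of the 4 distal convoluted tubule markers, 3 had differences above 0 in RNA-seq and 1 in RPF-seq. The part of these markers in the falls of sodium transport genes was not tested. Atp1b1, the β subunit of the sodium pump, had 1600.1 to 1791 early and 1181 to 1360.3 late RPKM in RNA-seq and 3969 to 4312 early and 3093 to 3365 late in RPF-seq, falling by 0.41 and 0.35 (adjusted p = 0.00837 and 0.046). Scnn1a, the α subunit of the epithelial sodium channel, fell by 0.37 in RNA-seq, and Slc9a3, the proximal sodium-proton exchanger, by 0.37. Of 11 water balance genes, Aqp3 (0.55 lower, from 59.2 to 78 early and 41.9 to 50.6 late RPKM) and Aqp6 (0.36 lower) fell in RNA-seq and none was called in RPF-seq. Summed over 5 principal cell markers, Aqp3 and Hsd11b2 among them, RNA-seq gave 350 to 396 RPKM early and 258 to 311 late, beside 760 to 1028 and 671 to 890 in RPF-seq, and their part in these falls was not tested. Of 27 proximal tubule transporters, 3 rose and 1 fell in RNA-seq, Lrp2 (megalin) by 0.32, Abcg2 by 0.35 and the lactate carrier Slc16a1 by 0.89 rising, shares not far from the 6.15% and 5.16% over all genes. The 6 proximal tubule markers, Lrp2 among them, summed to 49016.5 to 55150.1 RPKM early and 63439.6 to 72406.4 late in RNA-seq and overlapped in RPF-seq, and their part in these rises was not tested. Kap, an abundant androgen-regulated transcript of that segment, made up most of this sum (41215 to 46510.2 RPKM early and 54133 to 63585 late), and Lrp2 and Kap were the 2 of the 6 called in RNA-seq. Slc6a19, the neutral amino acid carrier, fell by 0.43 in RPF-seq. Renin (Ren1) and angiotensinogen (Agt) fell by 0.40 and 0.32 in RNA-seq, Atp6ap2, the prorenin receptor, rose by 0.30, and none of 12 genes of that list was called in RPF-seq.

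Splicing and growth genes were called in both directions. Srsf5 (ENSMUSG00000021134, chr12:80945504-80950507), a serine-arginine splicing factor, had 95.4 and 94.6 at ZT14, 102 and 106 at ZT16, 158 and 189 at ZT18, and 173 and 189 at ZT20 RPKM in RNA-seq and 113 and 106 at ZT14, 112 and 132 at ZT16, 208 and 188 at ZT18, and 235 and 249 at ZT20 in RPF-seq. It rose by 0.83 ± 0.072 and 0.92 ± 0.10, or 1.78-fold and 1.9-fold (adjusted p = 0.000399 and 0.00827), with no overlap. Of 25 splicing factors 4 rose and 2 fell in RNA-seq, and with the flattening 1 rose and 5 fell, beside 6.15% and 5.16% over all genes without it. Tra2b fell by 0.52 in RPF-seq. In the cell cycle list of 20 genes, Ccnd1, cyclin D1, fell by 0.65 and 0.59 (adjusted p = 0.00423 and 0.0295), Wee1, a kinase that delays mitosis, by 0.40 and 0.79, and Ccnd2 by 0.60 in RNA-seq, whereas Pcna rose by 0.25. The list medians were -0.40 and -0.35. Srd5a2, a steroid reductase, rose in both (0.89 and 0.99), and Mycn in RPF-seq (0.85, 1.14 to 1.6 early and 2.21 to 2.86 late RPKM).

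Genes of the translation machinery were called in both directions in RNA-seq, and none was called in RPF-seq, where 0.379% of all genes rose and 0.717% fell. Of 76 ribosomal protein genes, 13 rose and 5 fell in RNA-seq (4 and 5 after the flattening), beside 6.15% and 5.16% over all genes, and the median was -0.055 in RPF-seq against 0.055 in RNA-seq. Ribosomal protein genes share reads with many pseudogene copies, so their values are uncertain. Rps3a1 had 709 and 794 at ZT14, 839 and 859.6 at ZT16, 1054 and 1214 at ZT18, and 1100.3 and 1047 at ZT20 RPKM in RNA-seq, a rise of 0.46 (adjusted p = 0.00807) and a footprint difference of -0.38 (adjusted p = 0.0728). Of 15 translation factors whose mRNAs begin with a TOP sequence, 5 rose and 2 fell in RNA-seq and none was called in RPF-seq. Of 22 ribosome biogenesis genes, 2 rose and 4 fell in RNA-seq (0 and 3 after the flattening). Among those that fell were Fbl, fibrillarin, by 1.35 at 1.67 to 2.86 early and 0.484 to 1.45 late RPKM, and Ncl, nucleolin, by 0.43. In the lists of actin and SRF, ATF4, polyamine, NAD, NRF2 and heme, iron and mitochondrially encoded genes no member was called in RPF-seq, and at most 2 rose and 2 fell in RNA-seq. Among them Tfrc, the transferrin receptor, rose by 0.59 in RNA-seq and Asns, asparagine synthetase, by 0.64.

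**Figure D4:**
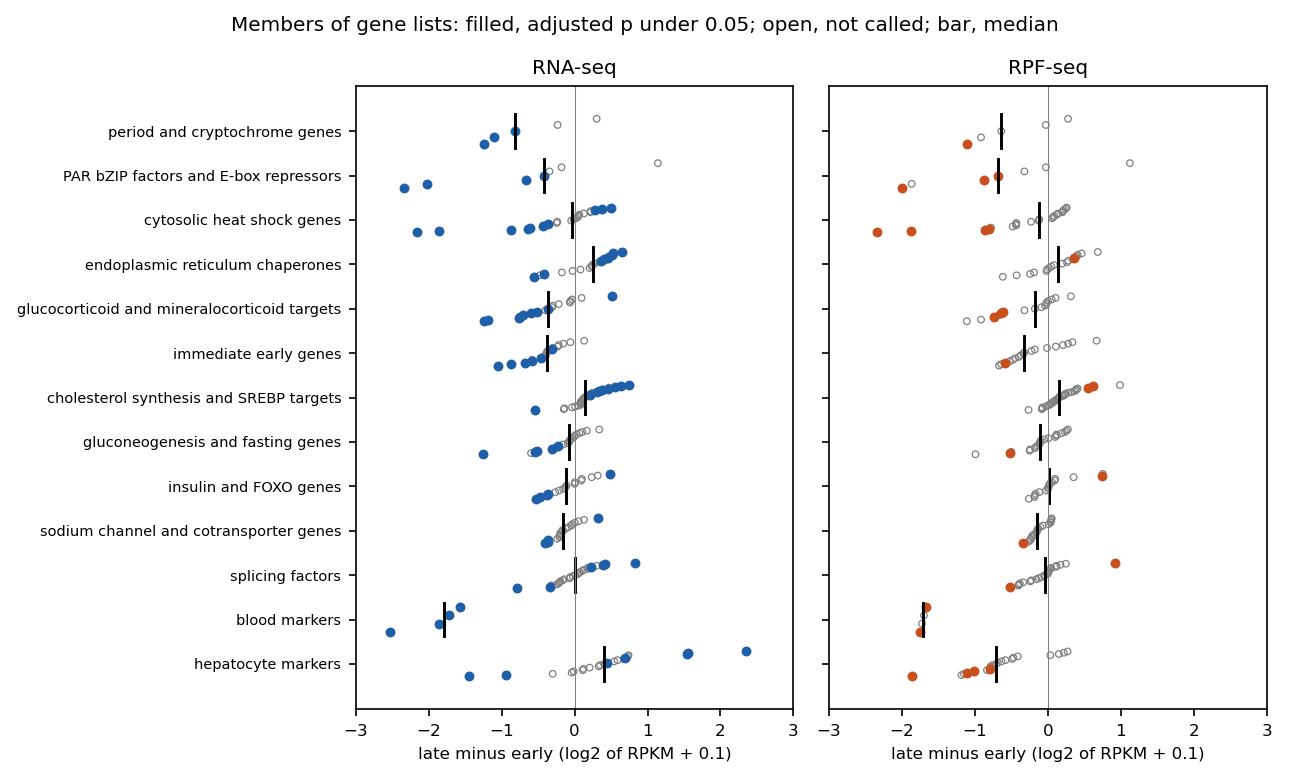
Differences (late minus early, log2 of RPKM + 0.1) of the members of 13 gene lists in RNA-seq (left) and RPF-seq (right), with filled points for genes called at an adjusted p under 0.05, open points for others and a bar at the median. Blood markers lie between -2.53 and -1.57 in RNA-seq, and hepatocyte markers have medians of 0.40 (RNA-seq) and -0.71 (RPF-seq).

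Genes of red blood cells fell in RNA-seq. Hba-a1, an α-globin gene, had 65.7 and 110.2 at ZT14, 180.4 and 170.0 at ZT16, 39.3 and 27.4 at ZT18, and 38.4 and 30.5 at ZT20 RPKM, highest at ZT16, and fell by 1.86 (adjusted p = 0.00574), Hbb-bt, a β-globin gene, fell by 2.53 and Alas2, the erythroid heme synthase, by 1.57. Reads of Hba-a1 and Hba-a2 may have been split between near-identical copies. In RPF-seq Hba-a2 (1.67 lower) and Alas2 (1.75 lower) were called. Summed over the 4 of 6 blood markers that were measured, RNA-seq gave 125 to 373 RPKM early and 56.7 to 77.2 late, and RPF-seq 57.0 to 230 and 28.5 to 48.4, with no overlap in either. These falls are themselves the blood markers, and whether blood left in the tissue had a part in other results was not tested.

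Several liver-type secreted proteins had differences of opposite sign in the assays. Mup3, a major urinary protein, had 0.145 and 0.636 at ZT14, 1.03 and 0.188 at ZT16, 3.05 and 2.41 at ZT18, and 2.11 and 2.2 at ZT20 RPKM in RNA-seq and rose by 2.35 (adjusted p = 0.0105), but had 8.88 and 8.61 at ZT14, 16.8 and 20.7 at ZT16, 6.54 and 11.2 at ZT18, and 7.87 and 7.8 at ZT20 in RPF-seq with overlapping groups and a difference of -0.63. Mup20 rose by 1.54 and Serpina3k, a plasma protease inhibitor, by 1.56 in RNA-seq, from levels under 7 RPKM, and near-identical copies make the read assignment of these families uncertain. Hpx, the heme-binding plasma protein hemopexin, fell by 1.86 in RPF-seq, with 3.86 and 6.89 at ZT14, 7.7 and 10.9 at ZT16, 1.35 and 1.93 at ZT18, and 1.66 and 2.51 at ZT20 RPKM, beside 0.137 to 0.882 RPKM in RNA-seq and no separation. Ces1c, a plasma carboxylesterase, fell by 1.11 and Ahsg, fetuin-A, by 1.02 in RPF-seq. Of 22 hepatocyte markers, a list drawn up after these values had been seen, 21 were tested. In RNA-seq 5 rose and 2 fell, beside 6.15% and 5.16% over all genes. In RPF-seq none rose and 4 fell, beside 0.379% and 0.717% over all genes. The members called in RNA-seq were Mup3, Mup20, Serpina3k, Alb and Apoa2, which rose, and Serpina1a and Serpina1b, which fell. Their summed level overlapped between groups at 1512 to 1866 RPKM early and 1725 to 1783 late in RNA-seq, and 3400 to 3854 and 3313 to 3798 in RPF-seq. These sums were mostly Cyp2e1 and Ttr, no marker was at 0 in all libraries, and the part of liver RNA in these differences was not tested.

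Translation efficiency (TE), the footprint RPKM of a pool divided by its transcript RPKM, tests the difference between the assays, and shares its libraries with both contrasts above. At an adjusted p under 0.05, 2 genes rose (0.0169%) and 1 fell (0.00843%), with 2031 genes at an unadjusted p under 0.05. BC048403 (ENSMUSG00000053684, chr10:121739937-121752878) had a TE of 0.801 and 1.01 at ZT14, 0.785 and 0.585 at ZT16, 2.09 and 2.81 at ZT18, and 2.44 and 2.6 at ZT20, and rose by 1.59 ± 0.16. ENSMUSG00000064168, for which no symbol was found, had 0.746 and 1.08 at ZT14, 0.881 and 0.796 at ZT16, 2.34 and 2.65 at ZT18, and 2.04 and 1.9 at ZT20, and rose by 1.25 ± 0.14. Both are low, at 0.753 to 3.95 RPKM over their libraries. Lyrm4 (ENSMUSG00000046573, chr13:35978395-36117526), which works in iron-sulfur cluster assembly, had a TE of 1.67 and 1.58 at ZT14, 1.52 and 1.68 at ZT16, 0.712 and 0.72 at ZT18, and 0.891 and 0.908 at ZT20 and fell by 1.00 ± 0.11, its transcript going through 35.9 and 44.4 at ZT14, 51.1 and 58.8 at ZT16, 99.2 and 95.2 at ZT18, and 95.1 and 95.1 at ZT20 RPKM and its footprints overlapping at 59.96 to 98.9. All 3 had an adjusted p of 0.0371 and groups that did not overlap. With each library flattened over coding GC content and length no gene was called (smallest adjusted p 0.0504, 2161 genes at an unadjusted p under 0.05). With single pools left out the count was 9 without ZT16 replicate 1, 2 without ZT14 replicate 2 and 0 without any other pool. Promoter windows were looked up by symbol, so ENSMUSG00000064168 was not searched. The 2 windows found for the called genes lacked the C and 4 pyrimidines of a TOP start at the transcript start. Since 2.51% of all 32851 windows had them, 2 windows are too few to compare.

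Over all genes, the median log2 TE was -0.099 to -0.058 in early and -0.092 to -0.084 in late pools (exact two-sided permutation test over 4 against 4 pools, p = 0.143, where 2 of 70 splits is the smallest share possible). The Spearman correlation of RPF-seq with RNA-seq over genes, which are not replicates, was 0.908 to 0.916 early and 0.910 to 0.920 late (exact permutation p = 0.343).

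Coding GC content moved with the RNA-seq differences. Over 11787 genes with a known coding sequence, the Spearman correlation of the difference with GC content was -0.42 for RNA-seq, with -0.01 for RPF-seq and 0.36 for TE, given as a description across genes. Genes that rose in RNA-seq had a median coding GC of 47.7% and those that fell 56.7%, against 52.9% over all. In the fifth of genes with the lowest GC content 318 rose and 15 fell, and in the fifth with the highest 35 rose and 227 fell. In each library, the correlation of deviations from a gene's mean over 24 libraries with GC content was 0.55 and 0.23 at ZT14, -0.24 and -0.10 at ZT16, -0.15 and -0.07 at ZT18 and -0.40 and -0.50 at ZT20 in RNA-seq. The groups overlapped (exact permutation p = 0.143). With the libraries flattened over coding GC and length, 563 genes rose and 617 fell in RNA-seq, 772 of them also called without it (57.6% of the latter), and 42 rose and 68 fell in RPF-seq, 92 of them shared (70.8%). Whether this GC trend comes from the tissue or from the libraries was not tested.

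**Figure D5:**
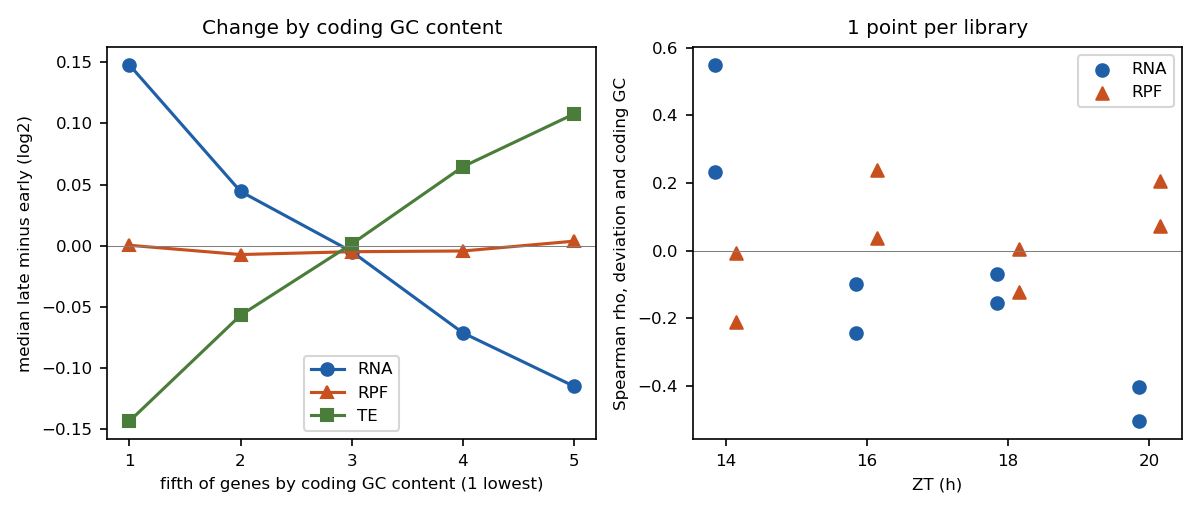
Left, the median difference (late minus early, log2) in 5 equal groups of genes by coding GC content, for TE and each assay. Right, the Spearman correlation of each library's deviations with coding GC against ZT in h, with RNA-seq running from 0.55 at ZT14 to -0.50 at ZT20 and RPF-seq staying between -0.21 and 0.24.

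The same step 12 h earlier, from ZT02 and ZT04 to ZT06 and ZT08 in the rest phase, shares no library with this one and was set against it. In RNA-seq the active-phase difference exceeded the rest-phase one in 1855 genes (15.6%) and fell short of it in 1451 (12.2%), and in RPF-seq in 167 (1.41%) and 246 (2.07%). The rest-phase RPF-seq library of ZT04 replicate 2 held 162 genes at 0 RPKM, where the active-phase RPF-seq libraries held 1 to 23. Its part in the RPF-seq counts was not tested. Of the 122 genes named by rule, 93 differed in RNA-seq and 52 in RPF-seq. Apart from the clock genes, these were named for their active-phase differences, which enter this contrast. A high share thus follows in part from that choice and cannot be set against the shares over all genes. Dbp, Arntl, Ciart and Nr1d1 had the opposite sign in the rest phase. Dbp differed by -2.34 in the active and 3.14 in the rest phase in RNA-seq, and Arntl by 1.62 and -2.41. Ciart differed by -2.03 and 3.09, and Nr1d1 by -2.36 and 1.15. The HSP70 genes had a smaller step in the rest phase. In RNA-seq it had the same sign, Hspa1b at -2.16 against -0.13 (adjusted p of the difference 0.000186) and Hspa1a at -1.86 against -0.17 (0.000198). In RPF-seq the rest-phase step was of opposite sign, Hspa1b at -2.35 against 0.22 (0.00423) and Hspa1a at -1.88 against 0.49 (0.00758). No gene was called in RPF-seq for the rest-phase step by itself, so the rest-phase signs of these 2 genes passed no test. In RNA-seq Cyp27b1 gave -1.61 against 0.52 (0.0057), Srsf5 0.83 against -0.17 (2.89e-05) and Hba-a1 -1.86 against 0.48 (0.000493). The GC correlation of the RNA-seq difference was 0.63 in the rest phase against -0.42 in the active phase, and with the flattening 1638 genes differed in RNA-seq in place of 3306.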

How the data were processed

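Libraries were made by the study from kidney lysates pooled from 2 mice, RNA-seq after ribosomal RNA depletion. RPF-seq followed RNase I digestion and size exclusion, then ribosomal RNA depletion and gel purification of the footprints. Per the submitters' processing notes and the study's methods, the authors trimmed reads with cutadapt, mapped them with Bowtie2 2.2.1 and TopHat2 2.0.11 to mouse cDNA and GRCm38.p2, built transcript models with Cufflinks 2.2.1, counted reads on coding sequences, scaled libraries by the upper quantile method of edgeR and deposited RPKM values, 1 table per library, holding 12728 genes for transcripts and 12622 for footprints. Strand handling was not given in the sources used here. RPKM values are not counts, so no count model was fitted. The depth of each library relative to the others was read from the steps between low values.

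From there, log2(RPKM + 0.1) of 11863 genes with a median of at least 0.5 RPKM over the 24 libraries of each assay entered 2-group fits by limma 3.58.1 (R 4.3.3; lmFit and eBayes, variance trend on), 4 pools against 4, with Benjamini-Hochberg adjustment over all genes tested and a threshold of 0.05. TE was tested as the log2 ratio within a pool, and the step against the rest phase as a contrast of 4 phase means. Replicates are pools that the labels number 1 and 2. Genes were named by rule: the 12 with the largest difference in each direction and assay among called genes with a mean of at least 1 RPKM and groups that did not overlap, up to 8 a direction in TE, the 19 clock genes, and the 3 members of each other list with the smallest adjusted p, 122 in all. Other list members were named after their values were seen. A few genes that the rule names or the lists hold are not reported here but remain in the counts. The contrast, the members and the 28 functional and 13 marker lists were chosen with earlier results of these data known, and the hepatocyte list and the flattening over coding GC and length (20 bins of each) were added after seeing the data. The fit was checked on simulated data. Symbols were found for 11815 genes, coordinates come from GENCODE vM21 on GRCm38, and promoter windows from RefSeq on GRCm38.p6. Alternatives were other pseudocounts, RPKM minimums, scalings, variance estimates, thresholds and timepoint means, a replicate block and pools or timepoints left out.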

Additional observations from a re-analysis of the deposited data

Results flagged for a closer look

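In 488 groups of 4 pools of the named genes, 25 (5.12%) held a pool whose gap to its nearest neighbour exceeded Dixon's critical value for 4 samples, 12 in RNA-seq and 13 in RPF-seq. Dixon's value flags about 1 in 20 groups when all 4 values come from a single normal distribution. Here each group joined 2 timepoints and many genes were picked by their differences, so the share cannot be set against that rate. In RNA-seq these pools were, among early pools, Mup20 at 2.88 RPKM and Fkbp5 at 90.5 (both ZT16 replicate 1), Ppard at 10.9 and Fdps at 32.2 (both ZT16 replicate 2), and Klf2 at 6.50 and Srm at 20.6 (both ZT14 replicate 1). Among late RNA-seq pools they were Lyrm4 at 99.2, Cyp27b1 at 1.93, Rbm3 at 120.9 and Cpt1a at 169 (all ZT18 replicate 1), and Wee1 at 13.6 and Eef1b2 at 403 (both ZT18 replicate 2). In RPF-seq the early pools were Gadd45a at 30.4 and Nolc1 at 24.9 (ZT16 replicate 1), Ces1c at 5.79, Clock at 4.76, Sat1 at 186 and Atp6ap2 at 249 (ZT16 replicate 2), and Bhlhe41 at 4.16 (ZT14 replicate 1). The late RPF-seq pools, without 1 gene that is not reported here, were 2210011C24Rik at 14.3 and Cry2 at 13.5 (ZT18 replicate 1), Rpl36a at 228.6 (ZT18 replicate 2), and Tmem107 at 4.02 and Paox at 4.67 (ZT20 replicate 2).

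The step differed from the rest-phase step at an adjusted p under 0.05 (limma, interaction contrast) in 1855 genes above and 1451 below in RNA-seq, and in 167 above and 246 below in RPF-seq. Among the 122 genes named by rule, the widest differences, active minus rest on the log2 scale, were in RNA-seq -5.48 for Dbp, -5.12 for Ciart, 4.56 for Mup3, 4.03 for Arntl, -3.52 for Nr1d1 and 3.52 for Npas2. In RPF-seq they were -5.18 for Dbp, -4.55 for Ciart, 4.14 for Npas2, 4.02 for Arntl, -3.39 for Nr1d1 and 3.09 for Ppard.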

How the results depend on the processing

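No named gene reversed its direction under any alternative where it was called in the main result or in that alternative. In each setting the called genes shared with the main result had the same direction. Differences near 0 that were never called could change sign, as Lyrm4 in RPF-seq did (0.034, and -0.052 with the flattening). The 1341 calls in RNA-seq became 869 with a variance estimate without trend, 181 at an adjusted p under 0.01, 206 at 1.5-fold or more, 2570 over 4 timepoint means, 341 without ZT14, 789 without ZT18 and 55 without ZT20, and ran from 293 to 1135 with single pools left out. The 130 in RPF-seq became 84 with a replicate block, 3 without trend, 68 with the replicate block and GC and length flattening, 2 at an adjusted p under 0.01, 66 at 1.5-fold, 267 over 4 and 500 over 12 timepoint means, 68 without ZT14, 304 without ZT16, 10 without ZT18 and 1 without ZT20, and 3 to 216 with single pools left out. The 3 in TE became 37 with a pseudocount of 1, 67 with a minimum of 2 RPKM, 5 after quantile normalisation, 7 without trend, 551 over 12 timepoint means, and 0 with the replicate block, with the flattening, with both, at an adjusted p under 0.01, over 4 timepoint means and without any one of ZT14, ZT16, ZT18 or ZT20, and 0 to 9 with single pools left out. The 3306 genes that differed from the rest phase in RNA-seq became 1638 with the flattening and 1561 with the replicate block added. The counts fall where the threshold is stricter by construction, and for the rest the cause was not tested. Same-numbered pools deviated together little (correlations -0.04 to 0.08 in RNA-seq and 0.02 to 0.11 in RPF-seq over 6 pairs), so the numbers were not taken to pair the samples, and the replicate block left 969 calls in RNA-seq. Over all pairs of a called named gene and a setting, the call was lost in 504 pairs in RNA-seq and 399 in RPF-seq, and kept in 1906 and 504. Depth limits the low genes, such as Mup3, Hpx and Ciart.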
